A study of Mus musculus with 6 samples.

Results

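The 38 genes described here encode the NRF2 and KEAP1 regulators, the enzymes that make and use glutathione, thioredoxin and its partners, peroxiredoxins, enzymes that supply NADPH, superoxide dismutases, metallothioneins and 3 detoxifying enzymes. They were chosen by name, and all 38 were found among the 14956 genes of the deposited expression table. All 38 also passed the filter for testing, a mean of at least 1 FPKM over the 6 hearts, as did 11096 genes in all. FPKM counts sequenced fragments scaled by transcript length and by the mapped fragments of the library, so that levels can be compared between genes.

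Poly(A) RNA was sequenced from the hearts of 6 mice, 3 with both copies of Otub1 intact (Otub1 +/+, WT) and 3 with 1 copy knocked out (Otub1 +/-, Het). OTUB1 is a deubiquitinase that also blocks ubiquitin transfer by binding ubiquitin-conjugating enzymes. Every mouse of both groups had been given doxorubicin (DOX), an anthracycline that is toxic to the heart, in 6 injections over 2 weeks. No untreated heart was analysed here, so all values compare genotypes under doxorubicin, and none is a response to the drug. The sources used here do not state strain, sex, age or dose. The knockout is not stated to be restricted to a cell type, and each library is 1 mouse.

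NRF2, encoded by Nfe2l2, is a transcription factor that KEAP1 holds for ubiquitination by a CUL3 and RBX1 ligase and for destruction by the proteasome. Oxidants and electrophiles modify KEAP1, and NRF2 then accumulates, pairs with a small MAF protein and binds antioxidant response elements near genes for glutathione synthesis, thioredoxin reduction and NADPH supply. Much of this control acts on the NRF2 protein, which RNA levels do not show. In heart muscle, doxorubicin accepts an electron and passes it to oxygen, which forms superoxide and then hydrogen peroxide, the substrates of many of the enzymes encoded here.

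The promoters of 7 of these genes are shown because the values below turn on their transcripts. Me1, Txnrd1 and Prdx1 were low in 1 Het heart, and Gclm was among the few higher in the other Het hearts. Mt1 and Mt2 differed from each other within hearts, and Nfe2l2 encodes the transcription factor itself. Only windows that hold the letters marked below are shown. Nqo1, Gstm1 and Prdx2 were at smaller shares of the WT mean than Prdx1 in that Het heart, and their windows lack the antioxidant letters. So was Mgst1, which has a window with these letters and is not shown. Prdx6 was also at a smaller share there, 37.4%, but no window of it was at hand to search. Sequences are from RefSeq on GRCm38.p6, read 5′ to 3′ on the gene's own strand, from 250 bases before to 30 after the start site. Capitals in the first 5 mark TGACNNNGC, the core of the antioxidant response element, on either strand. Me1 lies at chr9:86695885-86696164 (minus strand), Txnrd1 at chr10:82858956-82859235 (plus), Prdx1 at chr4:116685349-116685628 (plus), Gclm at chr3:122245307-122245586 (plus) and Nfe2l2 at chr2:75704634-75704913 (minus). The Txnrd1 gene begins upstream of the window shown, at chr10:82833951. Its windows at chr10:82833701-82834000 and chr10:82860091-82860390 lack these letters, as does another Me1 window at chr9:86687228-86687527.
Me1: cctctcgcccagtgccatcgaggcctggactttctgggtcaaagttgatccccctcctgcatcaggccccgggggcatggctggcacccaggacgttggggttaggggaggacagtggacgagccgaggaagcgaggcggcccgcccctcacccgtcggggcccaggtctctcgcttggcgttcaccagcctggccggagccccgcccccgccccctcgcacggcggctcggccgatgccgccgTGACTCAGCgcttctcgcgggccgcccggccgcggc
Txnrd1: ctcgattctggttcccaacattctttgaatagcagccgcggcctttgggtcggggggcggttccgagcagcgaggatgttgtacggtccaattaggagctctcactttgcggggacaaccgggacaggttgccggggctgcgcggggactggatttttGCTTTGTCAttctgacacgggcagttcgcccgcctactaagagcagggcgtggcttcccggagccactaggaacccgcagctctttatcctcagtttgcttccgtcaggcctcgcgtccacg
Prdx1: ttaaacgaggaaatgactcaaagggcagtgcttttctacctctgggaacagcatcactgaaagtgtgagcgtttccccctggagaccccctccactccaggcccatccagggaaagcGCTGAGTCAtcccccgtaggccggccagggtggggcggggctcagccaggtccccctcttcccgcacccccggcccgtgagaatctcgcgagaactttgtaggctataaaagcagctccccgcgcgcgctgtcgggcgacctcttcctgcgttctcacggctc
Gclm: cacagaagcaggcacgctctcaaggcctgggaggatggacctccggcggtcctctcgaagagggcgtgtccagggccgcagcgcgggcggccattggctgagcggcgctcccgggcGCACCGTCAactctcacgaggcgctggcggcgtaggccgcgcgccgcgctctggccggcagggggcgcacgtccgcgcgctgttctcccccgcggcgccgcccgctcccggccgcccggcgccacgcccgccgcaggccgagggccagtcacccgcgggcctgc
Nfe2l2: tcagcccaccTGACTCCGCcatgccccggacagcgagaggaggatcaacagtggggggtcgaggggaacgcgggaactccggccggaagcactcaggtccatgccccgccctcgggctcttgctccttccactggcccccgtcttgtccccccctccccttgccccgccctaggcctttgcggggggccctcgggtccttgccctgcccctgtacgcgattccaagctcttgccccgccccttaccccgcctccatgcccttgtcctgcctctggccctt

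In the metallothionein promoters, capitals mark TGCACNC or TGCGCNC, the core of the metal response element, on either strand. The Mt1 window is at chr8:94178839-94179118 and the Mt2 window at chr8:94172368-94172647, both on the plus strand, since the 2 genes are neighbours.
Mt1: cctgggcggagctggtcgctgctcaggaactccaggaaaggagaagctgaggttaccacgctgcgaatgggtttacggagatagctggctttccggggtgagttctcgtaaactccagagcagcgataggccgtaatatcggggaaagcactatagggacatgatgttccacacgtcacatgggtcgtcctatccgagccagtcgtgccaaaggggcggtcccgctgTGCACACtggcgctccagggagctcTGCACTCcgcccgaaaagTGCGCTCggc
Mt2: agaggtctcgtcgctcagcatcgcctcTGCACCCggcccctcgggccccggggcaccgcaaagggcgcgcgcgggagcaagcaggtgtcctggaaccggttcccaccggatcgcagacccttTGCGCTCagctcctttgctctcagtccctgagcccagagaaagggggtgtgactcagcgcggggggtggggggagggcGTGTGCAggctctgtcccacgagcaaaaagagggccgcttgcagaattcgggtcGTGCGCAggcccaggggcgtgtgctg

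Windows of 300 bases (250 before to 50 after the start) were at hand for 33 of the 38 genes, 40 windows in all. Gclc, Gsr, Prdx6, Gsta4 and Sod3 had no window and were not searched. The antioxidant response core was found in 12 of the 40 windows (30.0%) and in 12.4% of 32851 mouse windows of the same length. It stood in windows of Nfe2l2, Gclm, Txnrd1, Srxn1, Prdx1, Gstm5, Mgst1, Me1, Pgd, G6pdx, Sod1 and Mt2. In Me1 the match began 6 bases before the start site (position -6). The metal response core was found in 11 of the 40 windows (27.5%), against 25.7% of all windows, with 3 matches in Mt1 and 4 in Mt2. In the Gclm window the antioxidant match overlapped 1 of the 3 metal matches. These matches are descriptions of the letters, not mapped binding sites.

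The genotype was checked first. Otub1 itself stood at 15.4, 14.9 and 14.2 FPKM in WT 1 to WT 3 and at 4.83, 6.48 and 6.65 FPKM in Het 1 to Het 3. Its Het mean was 40.4% of the WT mean, and the groups did not overlap. In the limma test used below, Otub1 had a log2 fold change of -1.19 (SE 0.19, adjusted p = 0.376), so it was not called. The authors' deposited adjusted p for Otub1 was 1.6e-17. Het 1 stood apart from the other 5 hearts over the whole table. Its log2(FPKM + 1) lay 0.45 below the WT mean at the median gene, where the other hearts lay between -0.04 and 0.02, and mitochondrial transcripts made up 65.0% of its summed FPKM against 51.5% to 56.1% elsewhere. Summed cardiomyocyte markers (10 genes) were at 10357 FPKM in Het 1 against 20298 to 24876 FPKM in the other hearts, and none was at 0 in any heart. The 10 markers differed in degree, and Het 1 was the lowest heart for 8 of them. Actc1 was at 16.7% of the WT mean in Het 1, but Tnni3 and Myl2 were at 92.9% and 82.0% there and were lowest in Het 3. Summed erythroid markers (9 genes) were at 5719 FPKM in Het 1, 2414 in Het 2, 685 in Het 3 and 1013 to 1402 in WT. Summed hepatocyte markers (19 genes) were at 170.5 to 244 FPKM in WT against 6.50, 65.3 and 14.2 FPKM in Het, where 6, 0 and 8 of them were at 0. Summed lung epithelium markers (14 genes) were at 934 FPKM in Het 3 against 13.4 to 62.0 FPKM in the other 5 hearts, and 0 of the 14 were at 0 in Het 3 against 6 to 10 elsewhere. In the other 5 hearts nearly all of that sum was Hopx, which heart muscle also expresses and which was at 59.8 FPKM in Het 3 and 12.7 to 60.6 elsewhere. Without Hopx, the other 13 genes summed to 875 FPKM in Het 3 and 0.662 to 1.38 elsewhere. Summed macrophage markers (12 genes) were at 269 FPKM in Het 3 and 141 to 168 elsewhere, but Lyz2 alone was at 168 FPKM in Het 3 and 44.6 to 58.9 elsewhere, and the other 11 summed to 101 FPKM in Het 3 and 82.3 to 119 elsewhere. Fibroblast markers (10 genes) were at 284 FPKM in Het 1 and 515 to 587 elsewhere. Endothelial markers (10 genes) were at 215 to 263 FPKM and the 4 adipocyte markers in the table at 157 to 200 FPKM. These 2 sums hide opposite differences in Het 1. It lay above the WT range for 4 endothelial markers and below it for 4. Of the adipocyte markers, Fabp4 was at 112 FPKM in Het 1 (58.7 to 80.6 in WT), Pnpla2 at 37.0 (76.4 to 92.4) and Cidea at 8.19 (16.0 to 16.9). The part of these shifts in the antioxidant results was not tested. In bulk tissue, fewer cells of a type and less RNA per cell cannot be told apart.

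No antioxidant gene passed the test between genotypes. With limma on log2(FPKM + 1) and Benjamini-Hochberg adjustment over all genes tested, 0 of the 38 were called at an adjusted p under 0.05, where 0.0180% of all genes tested were called (2 of 11096). Otub1 itself was not called in this test, so a gene without a call is not thereby shown to be unchanged. At an unadjusted p under 0.05 there were also 0 of 38, against 3.88% of all genes. The smallest p was 0.0531, for Txn1, and adjusted p-values ran from 0.753, shared by 18 of the genes, to 0.973. The authors' deposited table gave none of the 38 an adjusted p under 0.05, where 1.02% of all genes did, and the lowest value of the 38 there was 0.778. The log2 fold changes, Het against WT, had a median of -0.29 over the 38 genes and -0.18 over all genes tested. On this scale, which understates the change of genes at low FPKM, 33 of the 38 were below 0, as were 8498 of the 11096 genes tested, and 26 of the 38 lay below the median gene.

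The groups did not overlap for 7 of the 38 genes (18.4%), all with lower FPKM in Het. These were Nfe2l2, Txn1, Prdx1, Prdx2, Gpx8, Mgst3 and Taldo1. Over all genes tested, 15.6% were apart with Het lower and 1.83% with Het higher, so the share of the 38 lay near that of the table. None of the 38 was apart with Het higher. With median-ratio scaling or quantile normalization, which bring the shift of the median gene to -0.02 and -0.01, 3 of the 38 were apart with Het lower (Txn1, Gpx8 and Taldo1), against 7.28% and 7.16% of all genes tested, and Nfe2l2, Prdx1, Prdx2 and Mgst3 were not. After a correction for GC content and transcript length 2 were apart, Txn1 with Het lower (6.43% of 10985 genes) and Gclm with Het higher (6.00%).

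**Figure D1:**
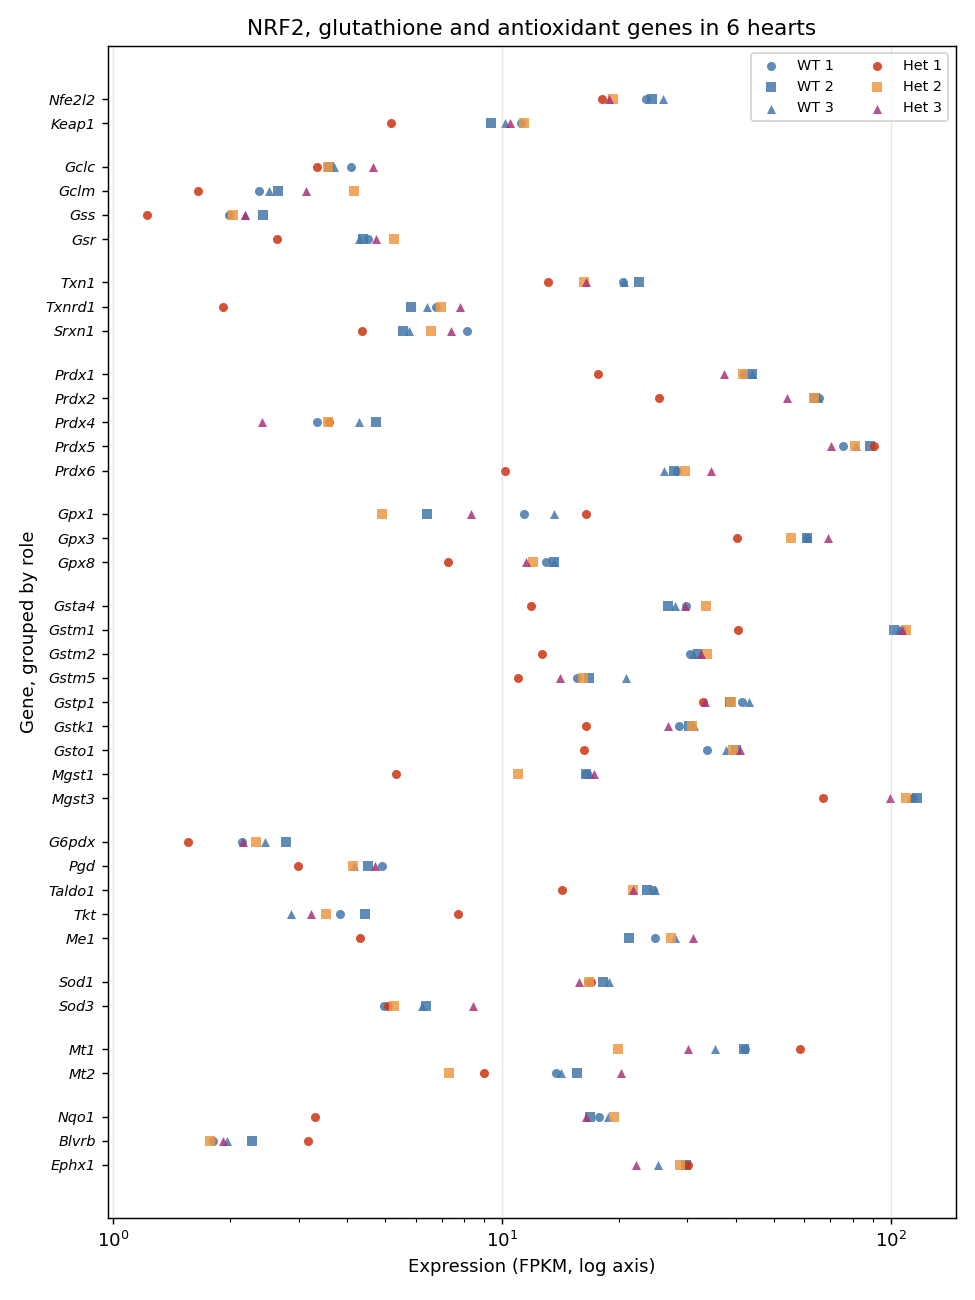
Expression of the 38 genes in each heart, in FPKM on a log axis, with genes in rows grouped by role and 1 point per mouse (blue for WT, other colours for Het 1, Het 2 and Het 3). WT points lie close together for most genes, and the Het 1 point lies at the low end for 28 of the 38.

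At the level of the regulators, Nfe2l2 was measured at 23.5, 24.4 and 26.0 FPKM in WT against 18.1, 19.3 and 18.9 FPKM in Het. Every Het heart was below every WT heart, and the 3 Het hearts lay close to each other, with a Het mean at 76.1% of WT. Its log2 fold change was -0.38 (SE 0.18, adjusted p = 0.753), which is -0.20 relative to the median gene. Set against the median gene of each heart, Nfe2l2 was at 0.03 on the log2 scale in Het 1 and at -0.31 and -0.32 in Het 2 and Het 3. Keap1, the adaptor that presents NRF2 to the ligase, was at 11.2, 9.39 and 10.2 FPKM in WT against 5.18, 11.4 and 10.5 FPKM in Het. Het 1 was thus at 50.4% of the WT mean while Het 2 and Het 3 lay above it. The ratio of Nfe2l2 to Keap1 within a heart was 2.10, 2.60 and 2.55 in WT and 3.50, 1.70 and 1.80 in Het, so the Het hearts lay on both sides of the WT range.

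Glutathione is made by glutamate-cysteine ligase, with the catalytic subunit Gclc and the modifier subunit Gclm, and by glutathione synthetase, Gss. Its oxidised form is reduced again by glutathione reductase, Gsr. Gclm was at 2.37, 2.66 and 2.51 FPKM in WT against 1.65, 4.16 and 3.14 FPKM in Het. Het 2 and Het 3 were above all WT hearts at 165% and 125% of the WT mean, and Het 1 was below all of them at 65.6%. Gclc ranged from 3.59 to 4.10 FPKM in WT and from 3.35 to 4.67 in Het, with the highest value in Het 3. The Gclc to Gclm ratio was 1.73, 1.35 and 1.47 in WT and 2.03, 0.859 and 1.49 in Het, so that Het 2 was the one heart with more of the modifier transcript than of the catalytic one. Gsr was at 4.51, 4.39 and 4.28 FPKM in WT against 2.64, 5.27 and 4.73 FPKM in Het, again with Het 1 below and the other Het hearts above the WT range. Gss stayed at 1.99 to 2.43 FPKM in WT and 1.22 to 2.18 in Het.

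Thioredoxin, Txn1, reduces disulfides of other proteins and is itself recharged by the reductase Txnrd1 with NADPH. Txn1 was at 20.5, 22.5 and 20.6 FPKM in WT against 13.1, 16.3 and 16.5 FPKM in Het. The groups were apart, with a Het mean of 72.2% of WT and a log2 fold change of -0.45 (SE 0.19, adjusted p = 0.753). Unlike its substrate, Txnrd1 was low in a single heart, with 6.75, 5.84 and 6.41 FPKM in WT and 1.91, 6.95 and 7.82 FPKM in Het. Its Het 1 value was 30.2% of the WT mean, and the other Het hearts exceeded every WT heart. Srxn1, sulfiredoxin, which repairs over-oxidised peroxiredoxins, ranged from 5.55 to 8.12 FPKM in WT and from 4.36 to 7.38 in Het.

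Peroxiredoxins reduce hydrogen peroxide with electrons from thioredoxin or, for Prdx6, from glutathione. Prdx1 was at 42.0, 44.0 and 44.0 FPKM in WT against 17.7, 41.8 and 37.3 FPKM in Het. Prdx2, abundant in red cells as well as in muscle, was at 65.6, 63.9 and 65.2 FPKM in WT against 25.3, 63.7 and 54.1 FPKM in Het. Both were lower in every Het heart, yet Het 2 lay within 4% of the WT mean for each (96.4% and 98.2%), and most of the difference of the means came from Het 1, at 40.7% and 39.0%. Prdx6 was at 28.3, 27.7 and 26.2 FPKM in WT against 10.2, 29.6 and 34.5 FPKM in Het, with Het 1 below and Het 2 and Het 3 above all WT hearts. Prdx5, found in mitochondria, peroxisomes and cytosol, ranged from 75.4 to 88.3 FPKM in WT and from 70.3 to 90.5 in Het, and its highest value was in Het 1. The Prdx5 to Prdx1 ratio was 5.13 in Het 1 against 1.80 to 2.01 in the other 5 hearts. In Het 1, Prdx5 was at 111% and Prdx1 at 40.7% of the WT mean. The Prdx1 to Prdx2 ratio moved little, from 0.640 to 0.689 in WT and from 0.656 to 0.697 in Het. Prdx4, the peroxiredoxin of the secretory pathway, ranged from 3.35 to 4.73 FPKM in WT and from 2.41 to 3.59 in Het, and its lowest heart was Het 3.

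**Figure D2:**
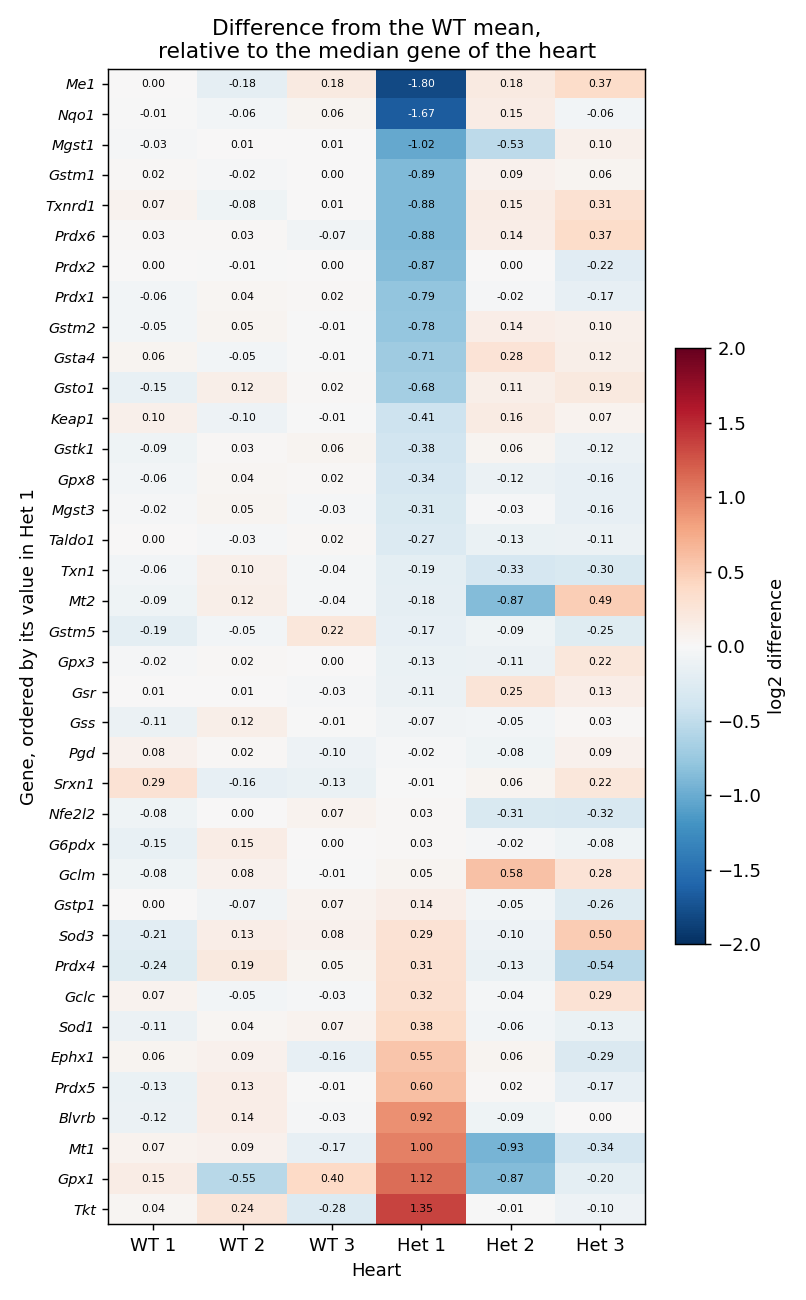
Each cell gives the log2(FPKM + 1) difference of a gene (rows, ordered by Het 1) in a heart (columns) from the WT mean, after subtraction of the same difference for the median gene of that heart; red is higher and blue lower. Het 1 spans -1.80 (Me1) to 1.35 (Tkt), and the WT columns lie near 0 for most genes.

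Among the glutathione peroxidases, Gpx1, the cytosolic and mitochondrial selenoenzyme, was at 11.4, 6.43 and 13.6 FPKM in WT against 16.5, 4.92 and 8.32 FPKM in Het. It varied widely inside both groups, which overlapped. Gpx3, the secreted plasma form, was at 61.0 FPKM in all 3 WT hearts and ranged from 40.3 to 69.0 in Het. Gpx8, an endoplasmic reticulum form, was at 13.0, 13.6 and 13.6 FPKM in WT against 7.28, 12.0 and 11.5 FPKM in Het, lower in each Het heart (log2 fold change -0.38, SE 0.23, adjusted p = 0.753).

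The 9 glutathione transferases join glutathione to reactive compounds, and the membrane-bound Mgst1 and Mgst3 also reduce lipid peroxides. All 9 had their lowest FPKM in Het 1, with a median of -0.68 relative to the median gene of that heart, while the median was 0.06 in both Het 2 and Het 3. Summed over the 9 genes, the level was 418 to 426 FPKM in WT and 214, 423 and 401 FPKM in Het 1, Het 2 and Het 3. Gstm1 was at 107, 102 and 105 FPKM in WT against 40.6, 109.6 and 107 FPKM in Het. Gstm2, its neighbour on chromosome 3, was at 30.5, 31.9 and 31.1 FPKM in WT against 12.7, 33.7 and 32.6 FPKM in Het. Their ratio lay between 3.21 and 3.52 in WT and between 3.20 and 3.27 in Het, so both were low in Het 1 to a similar degree. Gsta4, which clears the lipid peroxidation product 4-hydroxynonenal, was at 29.7, 26.8 and 27.9 FPKM in WT against 11.9, 33.6 and 29.6 FPKM in Het. Gsto1 was at 33.8, 40.1 and 37.8 FPKM in WT against 16.3, 39.4 and 41.1 FPKM in Het. In these 4 genes Het 1 lay at 38.7% to 43.9% of the WT mean and the other Het hearts above it.

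Mgst1 was at 16.5, 16.5 and 16.9 FPKM in WT against 5.35, 11.0 and 17.3 FPKM in Het, with Het 1 and Het 2 below and Het 3 above the WT range. Het 3 is also the heart where the lung epithelium markers without Hopx summed to 875 FPKM, and a link of these to Mgst1 was not tested. The log2 fold change of Mgst1 was -0.66 with all 6 hearts and -1.02 without Het 3 (adjusted p = 0.534). Without Het 1 it was -0.25 (adjusted p = 0.588). Mgst3, the most abundant of the 38 transcripts in WT, was at 114, 117 and 113 FPKM in WT against 67.2, 109.9 and 99.5 FPKM in Het, lower in each Het heart. Its log2 fold change was -0.34 (SE 0.27, adjusted p = 0.753). Gstm5, Gstp1 and Gstk1 had Het means of 77.8%, 85.0% and 82.0% of WT. Several mu- and pi-class transferases have close copies in the table, such as Gstp2 at 5.63 to 9.43 FPKM and Gstm7 at 2.82 FPKM in Het 1 and 17.1 to 20.5 elsewhere. The sources used here do not say how fragments shared by such copies were assigned, and values of Gstm1, Gstm2 and Gstp1 are uncertain to that extent.

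NADPH, which feeds both glutathione reductase and thioredoxin reductase, comes from the oxidative pentose phosphate enzymes G6pdx and Pgd and from malic enzyme, Me1, while Taldo1 and Tkt rearrange the pentoses. Me1 was at 24.7, 21.2 and 27.9 FPKM in WT against 4.32, 27.3 and 31.0 FPKM in Het. Het 1 was at 17.6% of the WT mean, the lowest share of the 38 genes, and -1.80 relative to its median gene, while Het 2 and Het 3 lay near the top of the WT range or above it. Tkt, transketolase, went the other way, with 3.84, 4.44 and 2.86 FPKM in WT and 7.69, 3.53 and 3.22 FPKM in Het, so that Het 1 was at 207% of the WT mean. Taldo1, transaldolase, was at 24.5, 23.6 and 24.8 FPKM in WT against 14.3, 21.7 and 21.8 FPKM in Het, and the groups were apart (log2 fold change -0.34, SE 0.23, adjusted p = 0.753). The Tkt to Taldo1 ratio was 0.538 in Het 1 and 0.115 to 0.189 in the other 5 hearts. G6pdx ranged from 2.14 to 2.78 FPKM in WT and from 1.56 to 2.33 in Het, and Pgd from 4.17 to 4.91 and from 2.98 to 4.70.

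Superoxide dismutases convert superoxide to hydrogen peroxide, Sod1 mainly in the cytosol and Sod3 outside the cell. Sod1 ranged from 16.7 to 18.9 FPKM in WT and from 15.8 to 17.0 in Het. Sod3 ranged from 4.98 to 6.38 FPKM in WT and from 5.09 to 8.40 in Het, highest in Het 3.

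Metallothioneins bind zinc and copper and scavenge oxidants. Mt1 was at 42.1, 41.9 and 35.3 FPKM in WT against 58.4, 19.9 and 30.1 FPKM in Het, and Mt2 at 13.8, 15.6 and 14.2 FPKM in WT against 8.98, 7.32 and 20.2 FPKM in Het. For Mt1, Het 1 was above and the other Het hearts below every WT heart; for Mt2, Het 3 was above and the others below. The Mt1 to Mt2 ratio was accordingly 3.06, 2.68 and 2.50 in WT and 6.51, 2.71 and 1.49 in Het 1, Het 2 and Het 3. Without Het 3, Mt2 had a log2 fold change of -0.77 (adjusted p = 0.534).

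**Figure D3:**
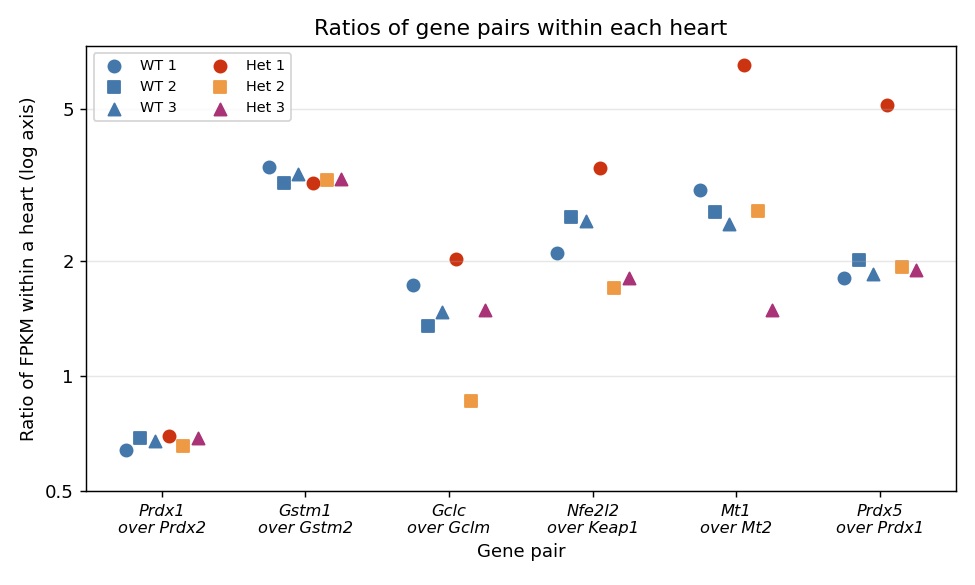
Ratio of FPKM between 2 genes within a heart (log axis) for 6 gene pairs, with 1 point per mouse (blue for WT, other colours for Het). The Prdx1 to Prdx2 and Gstm1 to Gstm2 ratios lie close together in all 6 hearts, while Mt1 to Mt2 runs from 1.49 to 6.51 and Prdx5 to Prdx1 reaches 5.13 in Het 1.

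Nqo1, which reduces quinones by a pair of electrons at once and is a standard reporter of NRF2 activity, was at 17.8, 16.9 and 18.7 FPKM in WT against 3.31, 19.4 and 16.5 FPKM in Het. Het 1 was at 18.6% of the WT mean, Het 2 above and Het 3 just below the WT range. The Nqo1 log2 fold change of -0.70 had an SE of 0.58 (adjusted p = 0.753). Blvrb, a flavin and biliverdin reductase that is abundant in red cells, ranged from 1.80 to 2.28 FPKM in WT and from 1.77 to 3.16 in Het, with Het 1 highest at 157% of the WT mean. Het 1 is also the heart with erythroid markers at 5719 FPKM, while Prdx2, also abundant in red cells, was at 39.0% of the WT mean there. A link of these markers to Blvrb was not tested. Ephx1, microsomal epoxide hydrolase, ranged from 25.2 to 29.7 FPKM in WT and from 22.1 to 30.1 in Het.

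Across all 38 genes, Het 1 was the lowest heart for 28 (73.7%, against 65.0% of all genes tested) and the highest for 6 (Tkt, Mt1, Gpx1, Blvrb, Prdx5 and Ephx1, against 18.1% of all genes). Relative to the median gene of each heart, the SD over the 38 genes was 0.699 in Het 1, 0.305 in Het 2, 0.250 in Het 3 and 0.104 to 0.132 in WT on the log2 scale. Over all genes tested the SD in Het 1 was 0.771, so the 38 genes scattered there about as widely as the rest. In Het 1, 3 genes lay below -1 (Me1, Nqo1 and Mgst1), and Tkt, Gpx1 and Mt1 lay at 1.35, 1.12 and 1.00. Genes with the antioxidant response core in a window ranged in Het 1 from -1.80 (Me1) to 0.38 (Sod1). The Nqo1 and Tkt windows held no match, which says only that these letters are not there. Genes of higher transcript GC content tended to be higher in Het 1 (Spearman correlation 0.36 across the 38 genes, 0.14 across 10985 genes). Those of higher mean FPKM over the 6 hearts tended to be lower there (-0.32 and -0.29). These genes share 1 library and are not independent replicates. A correction of each library for GC content and transcript length moved the Het 1 values of the 38 genes by at most 0.29. It changed the sign of 4 of these values and left Me1 at -1.66, Nqo1 at -1.53 and Tkt at 1.32.

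Leaving out Het 1 narrowed most of the errors and changed the sign of 14 of the 38 log2 fold changes. With 2 Het hearts left, again 0 of the 38 passed at an adjusted p under 0.05, and 4 of 38 had an unadjusted p under 0.05, against 12.4% of all genes tested, so the share of the 38 was not above that of the table. Nfe2l2 had a log2 fold change of -0.35 (SE 0.09, adjusted p = 0.255), Txn1 of -0.35 (SE 0.09, adjusted p = 0.255) and Mt1 of -0.67 (SE 0.18, adjusted p = 0.281). Gclm had the opposite sign, at 0.40 (SE 0.12, adjusted p = 0.302). Nqo1 was at 0.01 (SE 0.10), Me1 at 0.24 (SE 0.13), Txnrd1 at 0.19 (SE 0.10) and Gstm1 at 0.04 (SE 0.09), all of which had been below 0 with Het 1 included. The groups were then apart for 5 of the 38 with Het higher (Gclm, Gsr, Txnrd1, Prdx6 and Gstm2), against 11.0% of all genes tested, and for 8 with Het lower, against 21.7%. With fewer hearts more genes are apart over the whole table, and the shares of the 38 lay near these. Without Het 1, the median log2 fold change of all genes lay at -0.04.

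**Figure D4:**
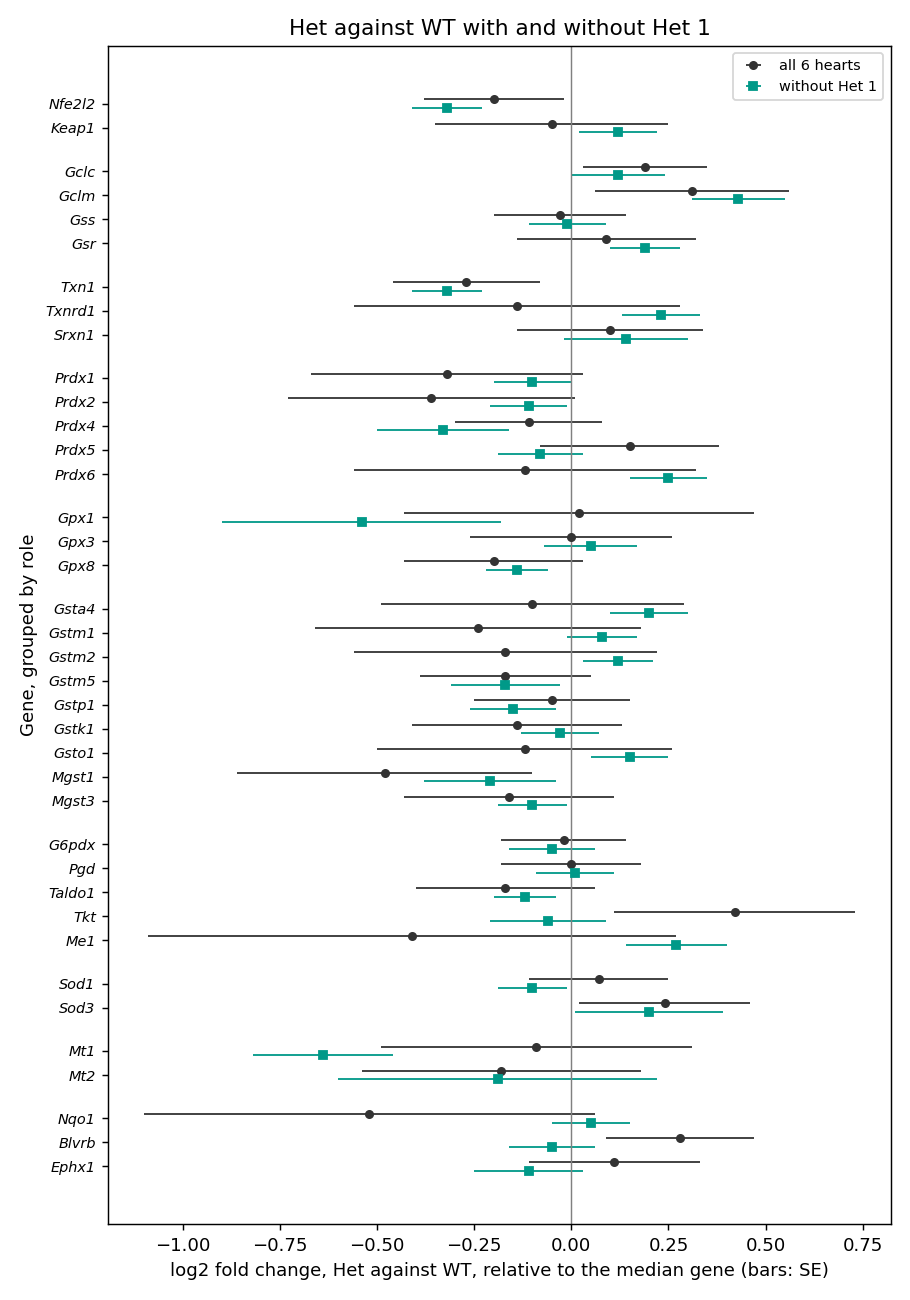
Log2 fold change of each gene, Het against WT, relative to the median gene of all genes tested (horizontal axis; bars are the SE from limma), from all 6 hearts (circles) and without Het 1 (squares). Squares have shorter bars for most genes, and Me1, Nqo1, Txnrd1 and Prdx6 cross 0 when Het 1 is left out.

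Other genes of the same pathways were taken from 2 lists. Of 38 further NRF2 targets and partners, 27 were tested, 0 were called, and 2 had an unadjusted p under 0.05 (0 higher, 2 lower in Het). Over all genes tested, 3.88% were under that p. One was Maff, a small MAF partner of NRF2, at 5.69, 6.36 and 7.34 FPKM in WT and 3.23, 3.37 and 3.67 FPKM in Het (log2 fold change -0.75, SE 0.15, adjusted p = 0.646). The other was Rbx1, the RING subunit of the ligase that KEAP1 serves, at 7.89, 8.30 and 7.75 FPKM in WT and 5.51, 5.88 and 4.94 FPKM in Het (log2 fold change -0.48, SE 0.15, adjusted p = 0.753). Each was lower in every Het heart. In this list 2 genes were apart with Het lower and 1 with Het higher, against 15.6% and 1.83% of all genes tested. Relative to the median gene of each heart, Maff was at -0.36, -0.74 and -0.63 in Het 1, Het 2 and Het 3, and Rbx1 at -0.01, -0.36 and -0.55, so the Het 1 value of Rbx1 was that of its median gene. Hmox1, heme oxygenase, was at 10.7, 4.41 and 4.62 FPKM in WT and 2.05, 4.65 and 5.81 in Het. Cat, catalase, was at 14.8 FPKM in Het 1 against 52.8 to 78.6 FPKM elsewhere. The median of this list lay 0.03 above the median gene.

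Of 44 further glutathione and thioredoxin enzymes, 38 were tested and 0 were called. Among those tested, 1 had an unadjusted p under 0.05, against 3.88% of all genes tested. That gene, the transferase Gstt2, was at 1.20, 1.31 and 1.44 FPKM in WT and 2.86, 1.75 and 1.78 FPKM in Het (log2 fold change 0.42, SE 0.17, adjusted p = 0.753). The mitochondrial peroxiredoxin Prdx3 was at 14.1 FPKM in Het 1 against 101 to 123 FPKM in the other 5 hearts, and the mitochondrial dismutase Sod2 at 12.8 FPKM in Het 1 and 38.1 to 45.6 elsewhere. Txnrd2, the mitochondrial thioredoxin reductase, was at 3.26 FPKM in Het 1 and 5.48 to 6.09 elsewhere. Gpx4, which reduces lipid hydroperoxides in membranes, ranged from 128 to 148 FPKM in WT and from 101 to 125 in Het, so its groups were apart. Its log2 fold change was -0.27 (SE 0.23, adjusted p = 0.753), which is -0.09 relative to the median gene. Against the median gene of each heart, Gpx4 was at 0.00, -0.18 and -0.10 in Het 1, Het 2 and Het 3. A copy, Gpx4-ps2, was at 34.0 to 47.0 FPKM, and how shared fragments were assigned is not stated. In this list 4 genes were apart with Het lower and 1 with Het higher, against 15.6% and 1.83% of all genes tested. The median of this list lay 0.06 below the median gene, at -0.06.

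In absolute level, WT means ran from 115 ± 2.37 FPKM for Mgst3 and 105 ± 2.48 for Gstm1 (SD, n = 3) down to 2.20 ± 0.219 for Gss and 2.01 ± 0.246 for Blvrb. Prdx5 at 81.7 ± 6.44, Prdx2 at 64.9 ± 0.901 and Gpx3 at 61.0 ± 0.0373 FPKM came next after the leading pair, and neighbours further down the order often lay within each other's SD. Summed over all 38 genes the level was 988 to 1000.0 FPKM in WT and 634, 948 and 942 FPKM in Het 1, Het 2 and Het 3. The Het SD of log values exceeded the WT SD for 36 of the 38 genes, as it did for 9752 of all 11096 genes tested.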

How the data were processed

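Oligo(dT) beads were used to select poly(A) RNA, and the second cDNA strand was marked with dUTP and removed, per the labels' protocols, so the libraries keep strand. The sources used here do not state whether quantification used it. Tools named in the submitters' processing notes, without roles, are StringTie 1.3.4d, HISAT2 2.0.4, cutadapt 1.9, DESeq2 and edgeR, and the build is mm10. Expression was deposited as FPKM for 14956 genes in 6 libraries. That this is FPKM was inferred from its values and from StringTie, since the headers do not say. No counts were used, so the depth is unknown. The authors' own comparison was deposited in the same table as a log2 fold change, a p-value, its -log10 and a q-value per gene.

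Here log2(FPKM + 1) was tested with limma 3.58.1 in R 4.3.3 (moderated test with trend and robust settings, two-sided). The filter, a mean of at least 1, left 11096 genes, and p-values were adjusted by Benjamini-Hochberg over all of them at 0.05. Promoters were matched by symbol, and 38 of 38 genes had an entry in GENCODE M21, whose transcripts gave GC content and length. The script was tested on simulated data that used the spread of the WT hearts for both groups. That test does not show what can be detected at the wider spread of the Het hearts.

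The 38 genes and all lists were chosen with earlier results of these data known. Values in all hearts are given for genes with an unadjusted p under 0.05, for genes whose groups do not overlap, for Nfe2l2 and Keap1, and for genes whose highest Het value was at least 2 times the lowest. From the further lists, genes with an unadjusted p under 0.05 and Hmox1, Cat, Gpx4, Sod2, Prdx3 and Txnrd2 are named. Alternatives were another pseudocount, other filters, 3 other scalings, library weights, a replicate block, leaving out each library, and a correction for GC and length that was chosen after seeing the data.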

Additional observations from a re-analysis of the deposited data

How the results depend on the processing

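In all 16 settings 0 of the 38 genes were called. Adjusted p-values of the 38 ran from 0.204 to 1.000. The other counts moved. Under the filter at a mean of at least 5 FPKM, 29 of the genes were tested, 1 had an unadjusted p under 0.05, and the median relative to all genes was -0.04. Of all 4972 genes tested under that filter, 33 were higher and 142 lower in Het at that p. With median-ratio scaling 1 gene of the table was called and 3 of the 38 did not overlap between groups, and with quantile normalization these counts were also 1 and 3. Scaling without mitochondrial genes left 4 apart (13.6% of all genes). Library weights gave Het 1 a weight of 0.0486 against 1.51 to 2.55. They called 22 genes of the table, put 4 of the 38 under p 0.05 and gave a median of -0.02. Of all 11096 genes tested with these weights, 312 were higher and 1111 lower in Het at that p. The GC and length correction called 1 gene, left 2 of the 38 apart and gave a median of -0.05. With the replicate block 1 gene of the table was called and 0 of the 38; same-numbered hearts correlated at -0.197, -0.435 and 0.211, so the numbers were not taken to pair mice. Leaving out 1 library gave 1 to 38 called genes, 0 to 4 of the 38 under p 0.05, 7 to 13 apart (21.5% to 32.8% of all genes), and a median of -0.13 to -0.05. The 4 came from the fit without Het 1, where 12.4% of all genes tested were under that p. Without Het 3 there were 2 of the 38, where 187 of 11075 genes tested were higher and 397 lower at that p. The 25 called genes of the table without Het 2 and the 38 without Het 3 included 0 of the 38 genes. The depth is unknown, and 3 hearts a group limit precision.

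Log2 fold changes below are those that changed sign; none had passed the test. Median-ratio scaling gave Ephx1 0.15, Gpx1 0.05, Gpx3 0.03, Gsr 0.08, Prdx5 0.19, Sod1 0.10 and Srxn1 0.10. Scaling without mitochondrial genes gave Prdx5 0.01. Quantile normalization gave Ephx1 0.20, Gpx1 0.06, Gpx3 0.10, Gsr 0.06, Gstp1 0.04, Mt1 0.02, Prdx5 0.27, Sod1 0.10 and Srxn1 0.09. Library weights gave Blvrb -0.05, Gpx3 0.01, Gsr 0.14, Gsta4 0.13, Gstm1 0.02, Gstm2 0.07, Gsto1 0.12, Keap1 0.05, Me1 0.18, Prdx6 0.19, Srxn1 0.05, Tkt -0.07 and Txnrd1 0.15. The GC and length correction gave Ephx1 0.15, Gpx1 0.02, Gpx3 0.00, Gsr 0.13, Gss 0.01, Pgd 0.02, Prdx5 0.15, Sod1 0.08 and Srxn1 0.09. Over the fits that leave out 1 library, ranges were -0.08 to 0.21 for Blvrb, -0.15 to 0.07 for Ephx1, -0.10 to 0.09 for Gclc, -0.08 to 0.40 for Gclm, -0.57 to 0.21 for Gpx1, -0.36 to 0.02 for Gpx3, -0.24 to 0.15 for Gsr, -0.55 to 0.16 for Gsta4, -0.66 to 0.04 for Gstm1, -0.58 to 0.09 for Gstm2, -0.53 to 0.11 for Gsto1, -0.42 to 0.08 for Keap1, -1.05 to 0.24 for Me1, -0.67 to 0.08 for Mt1, -1.11 to 0.01 for Nqo1, -0.11 to 0.07 for Prdx5, -0.61 to 0.22 for Prdx6, -0.15 to 0.17 for Sod3, -0.22 to 0.11 for Srxn1, -0.09 to 0.43 for Tkt and -0.61 to 0.19 for Txnrd1. The cause of each change was not tested.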
